A study of Mus musculus with 28 samples.

Results

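The levels of 9 genes known from Schwann cell (SC) precursors and the neural crest were followed through the development of mouse peripheral nerve. The genes were Cdh19, Fabp7, Foxd3, Tfap2a, Tfap2b, Moxd1, Ednrb, Mitf and Ets1, chosen by name and not by a cutoff on measured values, out of 41605 genes in the count table. All 9 were among the 17700 genes that passed the filter on low counts, and all 9 passed it without the E13 libraries too. Bulk poly-A RNA was sequenced from nerves of C57BL/6J mice at 7 stages, labelled as embryonic days (E) 13 and 17 and postnatal days (P) 1, 5, 14, 24 and 60. The labels cut the embryonic ages to whole days, and the study's text gives both to a fraction of a day more. Each stage had 4 libraries, 28 in all. The study states that at every stage 2 libraries came from male and 2 from female animals, with pools of a single sex. An E13 library pooled various nerves of 2 embryos, taken beyond the dorsal root ganglia and not stripped. An E17 library pooled the sciatic nerves of 2 embryos, and each postnatal library came from the sciatic nerves of 1 mouse. From E17 on, the outer sheaths of the nerve (epineurium and perineurium) were pulled off by hand. The mice were not perfused, no treatment or engineered allele is named for any group, and stage is the factor that was compared.

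The neural crest is a migratory embryonic population that arises at the border of the neural plate and gives rise to peripheral glia, sensory and autonomic neurons, melanocytes and part of the head mesenchyme. Crest cells that settle along growing axons become SC precursors, which turn into immature SCs and then into myelinating or Remak cells. SC precursors can also leave the nerve and become melanocytes, the pigment cells. The 9 genes fall into transcription factors of the crest (Tfap2a, Tfap2b, Foxd3, Ets1), the pigment cell regulator Mitf, surface proteins (the endothelin receptor Ednrb and the adhesion protein Cdh19), a fatty acid binding protein of glial precursors (Fabp7) and an enzyme-like protein of the secretory pathway (Moxd1).

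To show what lies ahead of these genes, the 250 bases upstream of RefSeq transcription starts (GRCm38.p6) are given for those whose change is described most closely. RefSeq windows were found for 7 of the 9 genes, in 10 windows, and none was used for Cdh19 and Ets1. Each run reads 5′ to 3′ on the strand of the gene and ends at the base before the start. Capitals mark a match to a motif that was searched on both strands. The motifs were GCCNNNGGC for AP-2 factors, the E-boxes CACGTG and also CATGTG for Mitf and its relatives, AACAAT and also AACAAAG for SOX factors, CCGGAAG for ETS factors, and TATAAA for the TATA box.
Fabp7 (chr10:57784673-57784922, plus strand): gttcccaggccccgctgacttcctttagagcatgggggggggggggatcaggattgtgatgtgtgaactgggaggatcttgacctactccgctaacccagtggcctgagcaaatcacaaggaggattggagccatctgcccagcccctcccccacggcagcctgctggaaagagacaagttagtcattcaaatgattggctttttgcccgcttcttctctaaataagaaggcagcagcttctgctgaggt
Tfap2b (chr1:19211804-19212053, plus strand): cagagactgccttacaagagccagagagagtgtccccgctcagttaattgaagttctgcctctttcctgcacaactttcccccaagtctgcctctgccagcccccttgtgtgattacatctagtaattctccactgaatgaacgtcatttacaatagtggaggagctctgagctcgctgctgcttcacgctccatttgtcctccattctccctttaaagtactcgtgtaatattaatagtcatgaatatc
Foxd3 (chr4:99656049-99656298, plus strand): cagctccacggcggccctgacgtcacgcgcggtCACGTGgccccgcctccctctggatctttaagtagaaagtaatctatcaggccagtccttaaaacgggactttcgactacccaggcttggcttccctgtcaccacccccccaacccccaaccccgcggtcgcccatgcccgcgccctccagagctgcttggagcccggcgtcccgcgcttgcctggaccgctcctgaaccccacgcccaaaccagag
Ednrb (chr14:103843702-103843951, minus strand): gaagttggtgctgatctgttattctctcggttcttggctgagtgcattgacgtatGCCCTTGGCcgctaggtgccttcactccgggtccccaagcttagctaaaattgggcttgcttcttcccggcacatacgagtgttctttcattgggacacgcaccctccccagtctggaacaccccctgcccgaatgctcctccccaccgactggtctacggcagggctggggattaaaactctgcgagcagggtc
Mitf, most upstream start (chr6:97806808-97807057, plus strand): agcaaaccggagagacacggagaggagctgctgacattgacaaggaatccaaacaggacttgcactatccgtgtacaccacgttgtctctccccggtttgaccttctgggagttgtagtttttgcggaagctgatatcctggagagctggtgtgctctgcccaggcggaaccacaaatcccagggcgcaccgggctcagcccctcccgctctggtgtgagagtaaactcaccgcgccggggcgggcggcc
Mitf, most downstream start (chr6:97991533-97991782, plus strand): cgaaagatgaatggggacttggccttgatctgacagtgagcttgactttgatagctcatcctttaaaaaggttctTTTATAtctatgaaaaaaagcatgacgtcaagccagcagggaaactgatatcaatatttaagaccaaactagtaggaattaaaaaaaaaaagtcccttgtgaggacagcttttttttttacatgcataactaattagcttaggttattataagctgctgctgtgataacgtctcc
These 3 matches were the whole yield of the search in the 10 windows. Foxd3 held the E-box CACGTG at position -217, a word found in 6.02% of the 32851 windows of all genes. Ednrb held an AP-2 word at -195, against 13.7% of all windows. The most downstream Mitf window held the TATA word on its minus strand at -175, against 12.4% of all windows. CATGTG was in 12.3%, AACAAT in 9.42%, AACAAAG in 5.03% and CCGGAAG in 6.91% of all windows, and none of these was in a window of the 7 genes. The RefSeq starts of Ednrb and of the most downstream Mitf window were not found as starts of GENCODE M21 transcripts, so the positions of the AP-2 and TATA words hold for the RefSeq starts only. A match of letters is not a bound site. Mitf has several alternative starts, the most downstream of which is known as that of the melanocyte form, and the counts per gene used here do not tell the starts apart.

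Levels are given as CPM (counts scaled to a common total with TMM-scaled library sizes), and a change is called where the adjusted p is below 0.05 and the fold at least 2. The error after ± is the SE for a log2 fold change. Total counts ran from 13899895 to 37662780 per library. 3 libraries carried a trend of their counts with GC content, with slopes of -1.24 (E13 replicate 1), 0.97 (E13 replicate 4) and -0.57 (P1 replicate 1) on the log2 scale per 10 points of GC, against -0.21 to 0.26 in the other 25. The nerve itself was visible through SC markers (8 genes, which include Foxd3 and Cdh19), whose summed level was 317 to 638 CPM at E13 and 3179.7 to 3352 CPM at E17. The E13 libraries also held sensory neuron markers (7 genes) at 150.3 to 352 CPM and sympathetic neuron markers (7 genes) at 40.1 to 463 CPM, while all later libraries were at 1.67 to 5.85 and 0.143 to 8.69 CPM. Age, nerve type and dissection cannot be told apart between E13 and E17, and in bulk RNA fewer cells of a type cannot be told apart from less RNA per cell.

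**Figure D1:**
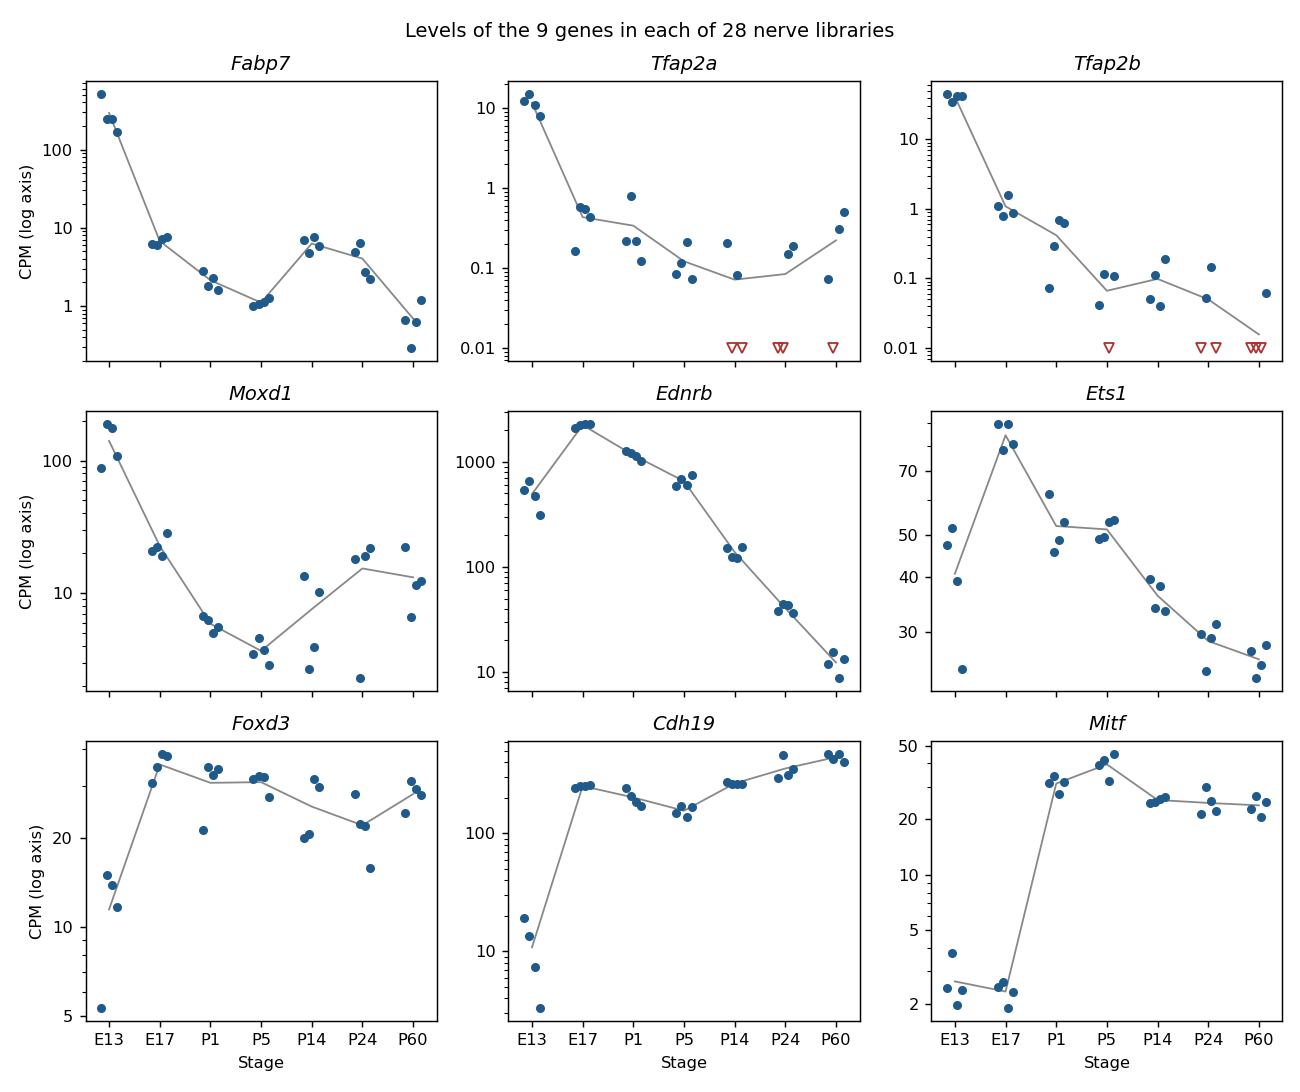
Level of each of the 9 genes in every library, in CPM on a log axis of its own in each panel, by stage. Points are the 4 libraries of a stage, the grey line joins stage means, and open triangles mark libraries with 0 counts, drawn at 0.01. Fabp7, Tfap2a, Tfap2b and Moxd1 are highest at E13, Ednrb and Ets1 at E17, and Mitf steps up between E17 and P1.

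All 9 genes changed along the timeline (F test over the 7 stages, with stage means at least 2-fold apart), as did 70% of all genes tested. Their profiles were not alike. Between E13 and E17, Fabp7, Tfap2a, Tfap2b and Moxd1 fell, while Cdh19, Ednrb, Foxd3 and Ets1 rose and Mitf was not called. These 4 falls and 4 rises compare with 21.2% of all genes called lower and 14.2% called higher at this step, or 35.5% either way. The libraries of the stages did not overlap for these 8 genes, which was the case for 46.8% of all genes. Between E17 and P1 a single gene rose, Mitf, and Fabp7, Tfap2b and Moxd1 fell further, against 6.31% of all genes called higher and 5.41% called lower, or 11.7% either way.

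**Figure D2:**
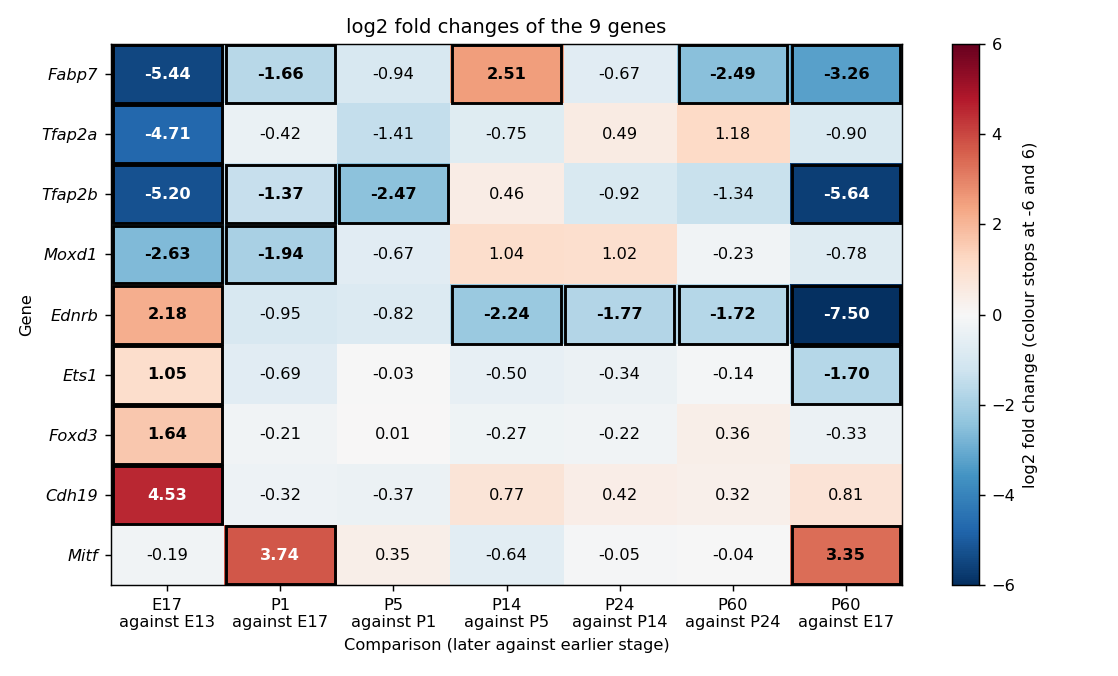
Estimated log2 fold changes of the 9 genes (rows) in 7 comparisons (columns), each a later against an earlier stage. Red is higher and blue lower in the later stage, and boxed values in bold are called. Boxes cluster in the column of E17 against E13, with 8 of 9 genes. In the last column Mitf is the only boxed rise. The Tfap2b values against P24 and P60 rest on at most 3 counts per library there.

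Tfap2a and Tfap2b encode AP-2 transcription factors, which specify the crest and are needed for its derivatives. Tfap2b (chromosome 1 from 19208914 to 19238576) stood at 45.4, 34.2, 42.5 and 42.7 CPM in the 4 E13 libraries and at 1.10, 0.792, 1.59 and 0.880 CPM in the 4 E17 libraries. No E17 library came near the lowest E13 library. The log2 fold change was -5.20 ± 0.37 (SE, adjusted p = 2.6e-12). It fell again at P1, to 0.0729, 0.292, 0.693 and 0.621 CPM, with a log2 fold change of -1.37 ± 0.41 (SE, adjusted p = 0.0129), and this call was lost without E17 replicate 3 (-1.10, adjusted p = 0.0782). The step from P1 to P5 was called too (-2.47 ± 0.61, adjusted p = 0.00466), although P1 replicate 1 lay within the range of P5, and this was the only one of the 9 genes called at that step, where 1.79% of all genes were called lower, 4.05% higher and 5.84% either way. Tfap2b was in that test through its level at other stages, and it did not pass the filter when only the P1 and P5 libraries were fitted. From P5 on the gene was almost undetected. The P5 libraries held 1, 4, 0 and 3 counts and the P14 libraries 1, 2, 1 and 5 counts. The P24 libraries held 0, 1, 3 and 0 counts and the P60 libraries 0, 0, 0 and 1 counts. Set against these sums, the E17 level was 67.9-fold that of P60, with an exact 95% interval of 11.9 to 2712 that covers counting error only.

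Tfap2a (chromosome 13 from 40715302 to 40738376) followed at a lower level. Its 4 E13 libraries read 12.3, 15.1, 11.0 and 8.05 CPM and its 4 E17 libraries 0.165, 0.581, 0.543 and 0.440 CPM, a log2 fold change of -4.71 ± 0.55 (SE, adjusted p = 3.8e-08). No later step of Tfap2a was called, and its counts from E17 on were between 0 and 19 per library. The P1 libraries held 6, 19, 6 and 4 counts and those of P60 1, 0, 5 and 8 counts, which overlapped. Antisense genes overlap exons of Tfap2a, and whether the counting used the strand is not stated in the sources used here. Of the other AP-2 genes, Tfap2d was at 0 counts throughout, and Tfap2c and Tfap2e did not pass the filter, with E13 means of 0.408 and 0.0997 CPM.

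Fabp7 (chromosome 10 from 57784881 to 57788450), also known as brain lipid binding protein, carries fatty acids in radial glia and in SC precursors. Its E13 libraries held 517, 246, 244 and 166 CPM and its E17 libraries 6.21, 5.97, 7.14 and 7.73 CPM. Replicate 1, the E13 library with the steepest GC trend and the most sensory neuron marker RNA (352, 168, 201 and 150.3 CPM in replicates 1 to 4), was also the highest for Fabp7. The part of either in that value was not tested. The log2 fold change was -5.44 ± 0.33 (SE, adjusted p = 1.1e-13), the lowest estimate among the 9 genes at this step, within the errors of that of Tfap2b. It was called under all 20 alternatives run, among them the one with no fold minimum, under which a call cannot be lost.

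After E17 the level of Fabp7 went down, up and down again. It fell to 2.84, 1.79, 2.30 and 1.61 CPM at P1 (-1.66 ± 0.32, adjusted p = 2.0e-04) and read 1.00, 1.06, 1.11 and 1.25 CPM at P5. At P14 the libraries stood at 6.95, 4.80, 7.51 and 5.89 CPM, all above the highest P5 library, with a log2 fold change of 2.51 ± 0.34 (SE, adjusted p = 2.2e-06). It was the only called rise among the 9 genes at that step, where 7.11% of all genes were called higher and 12% either way. The P24 libraries read 4.89, 6.33, 2.72 and 2.22 CPM and overlapped those of P14, a step that was called as a fall by voom alone (-1.02, adjusted p = 0.00169). By P60 the level was 0.658, 0.290, 0.622 and 1.19 CPM, with 4 to 19 counts per library, a log2 fold change of -2.49 ± 0.42 (SE, adjusted p = 8.8e-05) from P24. Fabp7 thus had its highest level at E13 and a second, much lower high point at P14, whose mean (6.29 CPM) did not differ from that at E17 beyond their spread (adjusted p = 0.794).

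The list held 3 other fatty acid binding proteins. Fabp5, the epidermal form, went from a mean of 235 CPM at E13 to 169 at E17 without being called, and was called lower only in P60 against E17 (-1.62 ± 0.16, adjusted p = 7.1e-10). Fabp4, the adipocyte form that endothelium also makes, rose from 0.753 to 63.3 CPM (6.35 ± 0.67, adjusted p = 6.0e-09), fell at P1 and rose again at P14. Fabp3, the heart form, fell between E13 and E17 like Fabp7 (-4.28 ± 0.47, adjusted p = 9.5e-09) and rose at P14 from 0.228 to 1.35 CPM (2.54 ± 0.51, adjusted p = 3.4e-04). Of the 4 listed genes, Fabp7 included, 3 were called higher at P14, beside 7.11% of all genes. Fabp3 was called lower again at P24 (-3.35 ± 0.59, adjusted p = 5.4e-04). It did not pass the filter when only the libraries of the compared stages were fitted at these last steps. Skeletal muscle markers (6 genes) summed to 31.0 to 668 CPM at E13 and 7.57 to 26.0 CPM at E17. At that step 5 were called lower and 1 higher, beside 21.2% and 14.2% of all genes. They summed to 0.667 to 2.42 CPM at P5, 2.53 to 5.55 CPM at P14 and 0.315 to 0.889 CPM at P24. Of them, 1 was called higher at P14 and 1 lower at P24. Their part in the Fabp3 values was not tested.

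Moxd1 (chromosome 10 from 24223517 to 24302790) encodes a relative of dopamine beta-hydroxylase of the endoplasmic reticulum and is a marker of migrating crest. The E13 libraries held 88.3, 189, 176 and 109 CPM and the E17 libraries 20.8, 22.4, 19.1 and 28.5 CPM, with a log2 fold change of -2.63 ± 0.46 (SE, adjusted p = 1.8e-05). At P1 the values were 6.71, 6.25, 5.07 and 5.58 CPM, a further log2 fold change of -1.94 ± 0.46 (SE, adjusted p = 0.00198), and at P5 they were 3.50, 4.61, 3.77 and 2.86 CPM, the lowest stage. The libraries then spread apart. They read 13.4, 2.71, 3.96 and 10.3 CPM at P14, 18.0, 2.30, 19.2 and 22.1 CPM at P24 and 22.3, 6.60, 11.6 and 12.3 CPM at P60. Replicate 2 was the lowest of the 4 at each of these stages, and P24 replicate 2 lay below every P5 library while the other P24 libraries lay far above them.

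Neither the step to P14 (1.04 ± 0.48, adjusted p = 0.103) nor that to P24 (1.02 ± 0.46, adjusted p = 0.252) was called. Each was called when replicate 2 of its later stage was left out, at 1.31 (adjusted p = 0.0432) for P14 against P5 and 1.38 (adjusted p = 0.0279) for P24 against P14. Set against P5, the lowest stage, P24 (2.06 ± 0.48, adjusted p = 9.8e-04) and P60 (1.83 ± 0.48, adjusted p = 0.00212) were both called. The P24 libraries overlapped those of P5 and the P60 libraries did not. Neither comparison was run under the alternatives. Replicate 2 of P14, P24 and P60 was also the lowest of its stage in perineurial markers (5 genes). Their summed level was 543, 473, 539 and 574 CPM at P14 in replicates 1 to 4. It was 804, 532, 801 and 822 CPM at P24 and 1323, 1017, 1334 and 1450.0 CPM at P60. P14 replicate 3, which was low in Moxd1 too (3.96 CPM), was not low in these markers. Fibroblast markers (7 genes) were lowest in replicate 2 at P24, with 5897, 3319, 6088 and 6399.7 CPM, but not at P14, with 4466, 4868, 4138 and 5875 CPM, nor at P60, with 5679.8, 4176, 4123 and 4948 CPM. All 12 of these markers passed the filter. How much of the sheath was left on each nerve is not given in the sources used here, and its part in the Moxd1 values was not tested. The genes nearest in profile, given here for each of the 9, depend on the measure: of the 27, 5 were shared with the lists from all 28 libraries and 5 with those by Spearman's rho. The 3 genes with the profile most like Moxd1 over the 24 libraries from E17 to P60 were Fzd7 and Fzd2, which encode Wnt receptors (Pearson r = 0.883 and 0.877), and St3gal4, a sialyltransferase (r = 0.883).

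Among the relatives of Moxd1, Dbh, which makes noradrenaline in sympathetic neurons, went from 93.7 CPM at E13 to 2.46 at E17 (-5.21 ± 0.77, adjusted p = 1.6e-06) together with all 7 sympathetic neuron markers, of which it is one. Pam, which amidates peptides, rose between P5 and P14 (1.39 ± 0.09, adjusted p = 3.4e-12) and stood at 403 CPM at P60. Moxd2 was at trace level.

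Ednrb (chromosome 14 from 103814625 to 103844402) encodes the type B endothelin receptor, which crest cells need to populate the gut and the skin. It was the most abundant of the 9 genes per length at E17, with 524 CPM per kilobase of exon, against 58.8 for Cdh19, the next in order. At E13 Fabp7 led on the same scale, with 234 against 116 for Ednrb. The E13 libraries held 535, 655, 469.8 and 315 CPM and the E17 libraries 2118, 2256, 2267 and 2302 CPM, a log2 fold change of 2.18 ± 0.17 (SE, adjusted p = 1.4e-11). From that peak every stage was lower than the one before. The P1 libraries read 1262, 1211, 1141 and 1019.5 CPM, the P5 libraries 588, 681, 597 and 751 CPM and the P14 libraries 153, 125, 122 and 154 CPM. The P24 libraries were down to 38.1, 44.4, 43.0 and 36.5 CPM and those of P60 to 12.0, 15.4, 8.77 and 13.2 CPM. No pair of consecutive stages overlapped.

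The first steps of the decline of Ednrb were significant but just under 2-fold, with log2 fold changes of -0.95 ± 0.16 (SE, adjusted p = 5.3e-05) and -0.82 ± 0.16 (SE, adjusted p = 5.4e-04). The later steps were larger, at -2.24 ± 0.17 (SE, adjusted p = 9.7e-11), -1.77 ± 0.17 (SE, adjusted p = 1.7e-07) and -1.72 ± 0.17 (SE, adjusted p = 5.0e-08). Each of them also spanned more days than the first steps, so rates per day are not compared. Ednrb was the only one of the 9 genes called lower in all 3 of these steps, and the single other fall called among them was that of Fabp7 in P60 against P24. At these steps 4.91%, 1.14% and 3.41% of all genes were called lower (in the last pair, 1.51% and 2.55% were called higher, and 2.65% and 5.96% either way). Over the whole span from E17 to P60 the log2 fold change was -7.50 ± 0.22 (SE, adjusted p = 7.9e-21), a fold of 181. With the stages put in order of level, all 6 neighbouring pairs differed for Ednrb (adjusted p below 0.05), the full set, against 1 to 3 for each of the other 8 genes.

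The genes with the profile nearest to Ednrb were Nusap1, Kif15 and Tpx2 (Pearson r = 0.995, 0.995 and 0.994 over the 24 libraries from E17 to P60), all of which serve the mitotic spindle. These were the highest values among 11399 candidate genes. Between E17 and P60 the mean of Nusap1 dropped from 135 to 0.751 CPM, that of Kif15 from 120.2 to 0.552 and that of Tpx2 from 229 to 1.55. The libraries share stage and depth, and these values are given as descriptions.

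The ligands and processing enzymes of the same pathway were listed beside Ednrb. Edn3, the main ligand of Ednrb in the crest, fell from 9.82 to 2.27 and 0.442 CPM (-2.11 ± 0.37, adjusted p = 2.3e-05 and -2.33 ± 0.43, adjusted p = 1.5e-04) and rose again at P14 (2.07 ± 0.41, adjusted p = 2.8e-04) to 2.95 CPM. Edn1, the endothelial ligand, was called higher at P14 (1.29 ± 0.25, adjusted p = 2.4e-04) and in P60 against E17 (2.58 ± 0.26, adjusted p = 1.4e-09), from 2.00 to 12.0 CPM. Of the enzymes that cleave the precursor, Ece1 rose between E13 and E17 (1.49 ± 0.16, adjusted p = 5.2e-09) and Ece2 fell (-1.58 ± 0.27, adjusted p = 1.2e-05). The type A receptor Ednra was not called in any comparison and stood at 25.6 CPM at E13 and 8.62 CPM at P60. Edn2 was at trace level.

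Cdh19 (chromosome 1 from 110888326 to 110977584) encodes a type II cadherin of SC precursors and of the SC lineage after them. The E13 libraries held 19.1, 13.5, 7.37 and 3.32 CPM, a spread in which replicate 4 was the lowest and replicate 1 the highest for this gene of 37.4% GC, the lowest of the 9, and the E17 libraries held 243, 254, 254 and 256 CPM. The part of the GC trends in that spread was not tested. The log2 fold change was 4.53 ± 0.30 (SE, adjusted p = 6.6e-13), the largest rise among the 9 genes. All 8 SC markers, which include Cdh19 itself and Foxd3, were called higher at this step, beside 14.2% of all genes. After E17 the gene stayed on. The P1 libraries read 245, 208, 184 and 170.1 CPM. The level was 149, 169.6, 138 and 166 CPM at P5 and read 274, 261, 262 and 263 CPM at P14, 292, 464, 312 and 349.7 CPM at P24 and 472, 427, 468 and 402 CPM at P60. The step from P5 to P14 was significant but short of 2-fold (0.77 ± 0.26, adjusted p = 0.0252), as was P60 against E17 (0.81 ± 0.26, adjusted p = 0.00761). Rises were called in P24 against P5 (1.19 ± 0.26, adjusted p = 5.6e-04), P60 against P5 (1.51 ± 0.26, adjusted p = 2.3e-05) and P60 against P1 (1.13 ± 0.26, adjusted p = 4.6e-04). These were not run under the alternatives. Per length Cdh19 was the highest of the 9 genes at P60, at 103 CPM per kilobase of exon, against 12.1 for Foxd3 and 2.89 for Ednrb.

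P24 replicate 2, the library low in sheath markers, was the highest P24 library for Cdh19. It was also the highest for the summed SC markers, Cdh19 included (4935, 5971, 4539 and 4515 CPM in replicates 1 to 4). The part of its tissue makeup in the Cdh19 value was not tested. Nearest in profile to Cdh19 were Ifit2 (r = 0.970), Plscr2 (r = 0.964) and Abcg2 (r = 0.952), respectively an interferon-induced gene, a phospholipid scramblase and a membrane transporter.

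**Figure D3:**
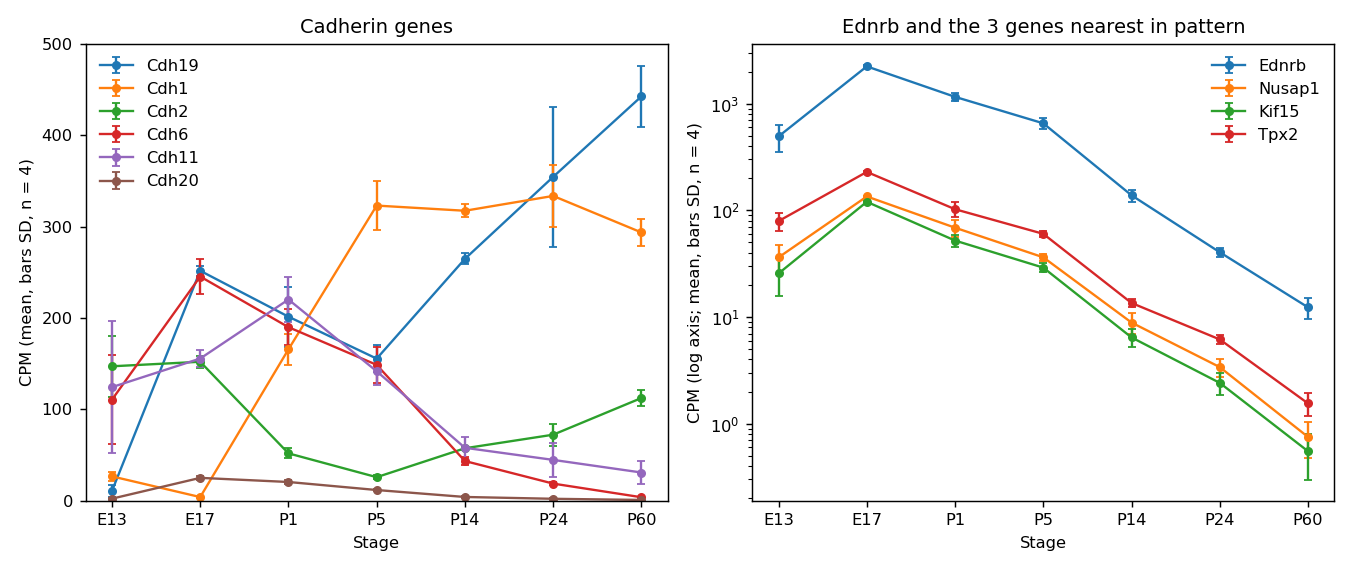
Left, mean CPM of Cdh19 and 5 other cadherin genes by stage, on a linear axis. Right, mean CPM of Ednrb and of Nusap1, Kif15 and Tpx2 by stage, on a log axis. Bars are SD over 4 libraries. Cdh19 and Cdh1 are the cadherins above 200 CPM from P14 on, and Cdh6 and Cdh20 fall below 5 CPM at P60.

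Other cadherins changed places around Cdh19. Cdh1, E-cadherin, which adult SCs hold in the junctions of their own myelin sheath, went from 4.06 CPM at E17 to 166 CPM at P1 (5.36 ± 0.18, adjusted p = 1.7e-18) after a fall between E13 and E17. Cdh2, N-cadherin, which mediates contacts of precursors and immature SCs with axons, fell at P1 (-1.55 ± 0.13, adjusted p = 3.7e-10) and P5 (-1.01 ± 0.13, adjusted p = 2.1e-06) and rose at P14 (1.15 ± 0.13, adjusted p = 1.2e-07), back to 112 CPM at P60. Cdh6 and Cdh20, 2 other type II cadherins, rose with Cdh19 between E13 and E17 (1.15 ± 0.20 and 3.41 ± 0.20, log2 ± SE) but were lower at P60 than at E17, with log2 fold changes of -5.98 ± 0.25 and -4.74 ± 0.23. Cdh11, a mesenchymal cadherin, fell between P5 and P14 (-1.29 ± 0.32, adjusted p = 0.00261), and Cdh13 fell between E13 and E17 (-1.75 ± 0.24, adjusted p = 4.1e-07). Cdh5, the endothelial cadherin, was not called in any comparison.

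Foxd3 (chromosome 4 from 99656299 to 99658622, a gene of a single exon) encodes a forkhead factor that keeps crest cells multipotent and holds back the melanocyte fate. Its E13 libraries read 5.30, 15.02, 13.8 and 11.7 CPM and its E17 libraries 30.8, 34.9, 38.7 and 38.0 CPM, with a log2 fold change of 1.64 ± 0.23 (SE, adjusted p = 6.8e-07). E13 replicate 1 was the lowest, a library whose counts fell with GC relative to the other E13 libraries. Foxd3 has a GC content of 65.1% over its exons, the highest of the 9 genes. E13 replicate 4, with a slope of the other sign, was not the highest. The part of GC in these values was not tested. With a GC correction the call held, but that correction removes trends within a stage and could hardly move a difference between stages. After E17 no step was called, the stage means lay between 22.1 and 35.6 CPM, and the libraries of P60 read 24.3, 31.3, 29.3 and 27.9 CPM. Those from E17 to P60 were not told apart in any neighbouring pair of levels, although P24 lay below E17 without overlap, by less than 2-fold (-0.69 ± 0.22, adjusted p = 0.00928). P1 replicate 1, the third library with a GC trend, was again the lowest of its stage, at 21.3 CPM against 32.7 to 35.0. The genes nearest in profile were Lrwd1, Ranbp3 and Trmt2a (r = 0.891, 0.868 and 0.860), with housekeeping roles in replication origins, nuclear transport and tRNA methylation. No GC correction was made for these r values, and Foxd3 changed little over the libraries used, so spread within stages weighs in them.

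Ets1 (chromosome 9 from 32636221 to 32757820) encodes an ETS factor that acts in the delamination of crest cells and in endothelium. The E13 libraries held 47.4, 51.7, 39.3 and 24.6 CPM and the E17 libraries 89.7, 78.2, 89.9 and 80.6 CPM, and the stages did not overlap. The log2 fold change was 1.05 ± 0.15 (SE, adjusted p = 7.6e-07), close to the 2-fold limit, and it dropped below that limit without E13 replicate 4 (0.87). At P1 the level was 61.9, 45.6, 48.6 and 53.5 CPM, a significant step of less than 2-fold (-0.69 ± 0.15, adjusted p = 6.5e-04). The P5 libraries read 49.1, 49.4, 53.5 and 54.0 CPM and those of P14 39.6, 34.0, 38.2 and 33.4 CPM, again a significant step below 2-fold (-0.50 ± 0.15, adjusted p = 0.0104). By P60 the values were 27.1, 23.5, 25.2 and 27.9 CPM, and P60 against E17 was called at -1.70 ± 0.15 (SE, adjusted p = 1.5e-10). Endothelial markers (9 genes) had summed levels of 232 to 282 CPM at E13, 363 to 431 CPM at E17 and 214 to 248 CPM at P1. They stood at 305 to 357 CPM at P5, 424 to 512 CPM at P14 and 552 to 622 CPM at P60. From E13 to E17, where Ets1 rose, 3 were called higher and 0 lower, beside 14.2% and 21.2% of all genes. Their median log2 fold change was 0.54. From E17 to P1, where Ets1 fell, 1 was called lower and 0 higher, beside 5.41% and 6.31% of all genes. The median was -0.83. From P5 to P14, where Ets1 fell, 1 was called higher and 0 lower (7.11% and 4.91% of all genes), with a median of 0.60. In P60 against E17, 4 were called higher and 0 lower (22.2% and 17.5% of all genes), again the other way from Ets1. The part of endothelium in the Ets1 values was not tested. Nearest in profile were Golm1 (r = 0.978), Kpna2 (r = 0.976) and Eif4ebp2 (r = 0.975).

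Of the 10 ETS genes listed, 3 rose between E13 and E17, namely Ets1, Erg (1.23 ± 0.25, adjusted p = 1.5e-04) and Gabpa (1.47 ± 0.19, adjusted p = 2.5e-07), and 0 fell, so that 3 of 10 were called beside 35.5% of all genes. The median log2 fold change of the 10 was 0.57, against -0.08 over all genes. Between E17 and P60, Ets1, Elk3, Etv5 and Gabpa were lower and Erg, an endothelial factor, was higher (1.01 ± 0.25, adjusted p = 7.5e-04), 5 of 10 beside 39.7% of all genes, with medians of -0.50 and 0. Etv5 and Etv4, which respond to growth factor signals, fell both at P5 (-1.17 ± 0.15, adjusted p = 1.9e-06 and -1.31 ± 0.25, adjusted p = 4.0e-04) and at P14 (-1.03 ± 0.15, adjusted p = 7.2e-06 and -1.04 ± 0.26, adjusted p = 0.00355), and Etv4 rose again at P24 (1.12 ± 0.27, adjusted p = 0.00973). Ets2, Fli1, Etv1 and Elf1 were not called.

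Mitf (chromosome 6 from 97807052 to 98021349) encodes the basic helix-loop-helix factor that directs melanocyte development and, in other cells, lysosome and stress genes. It had the largest called step of the 9 genes between consecutive stages after E17. The E13 libraries held 2.45, 3.80, 1.99 and 2.37 CPM and the E17 libraries 2.47, 2.64, 1.90 and 2.32 CPM, which overlapped (-0.19 ± 0.18, adjusted p = 0.358). At P1 the 4 libraries read 31.2, 34.2, 27.3 and 31.9 CPM, each more than the highest E17 library by a wide gap, and the log2 fold change was 3.74 ± 0.17 (SE, adjusted p = 1.1e-15), a fold of 13.4. The P5 libraries read 39.2, 41.6, 32.3 and 45.1 CPM. A smaller but significant fall followed at P14 (-0.64 ± 0.15, adjusted p = 0.00135), to 24.3, 24.9, 25.9 and 26.5 CPM, and no later step was called. The P24 libraries read 21.2, 29.7, 25.0 and 22.0 CPM and the P60 libraries 22.8, 26.8, 20.6 and 24.7 CPM, and all 3 of these stages overlapped. P60 against E17 was called at 3.35 ± 0.17 (SE, adjusted p = 1.3e-15), the only called rise among the 9 genes in that comparison. The called falls there were 4 (Ednrb, Fabp7, Tfap2b and Ets1), where 22.2% of all genes were called higher, 17.5% lower and 39.7% either way.

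**Figure D4:**
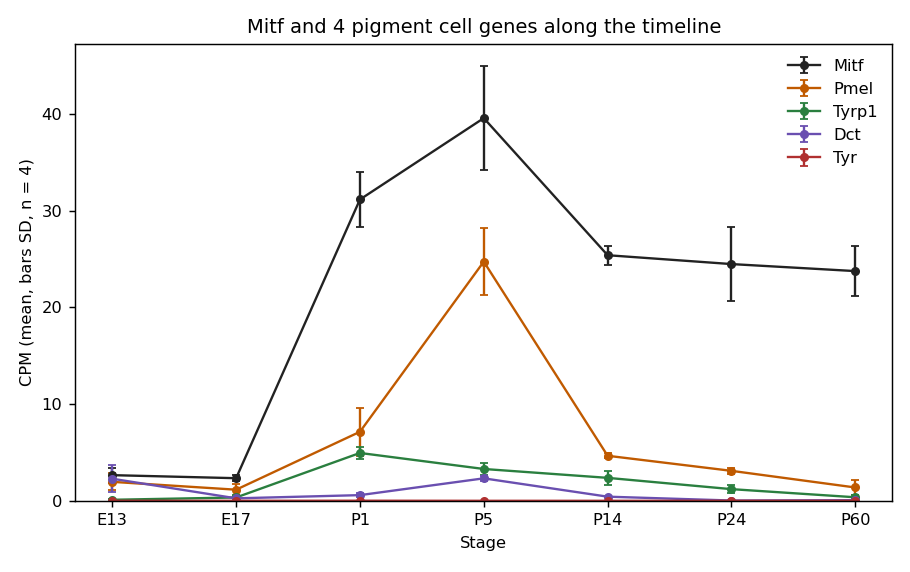
Mean CPM of Mitf and of the pigment cell genes Pmel, Tyrp1, Dct and Tyr by stage, on a linear axis, with SD over 4 libraries as bars. Mitf steps up at P1 and stays near 24 to 25 CPM from P14 to P60, while Pmel peaks at P5 and falls back and Tyr stays near 0.

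Genes of pigment cells were set beside Mitf. Of 11 melanocyte markers, 4 passed the filter, and the summed level of the 11 was 1.51 to 2.76 CPM at E17, 9.55 to 15.8 CPM at P1, 26.8 to 34.0 CPM at P5 and 1.68 to 2.98 CPM at P60. Pmel, a structural protein of the pigment granule, rose at P1 (2.66 ± 0.35, adjusted p = 1.1e-06) and at P5 (1.79 ± 0.30, adjusted p = 9.6e-05), from 1.15 to 7.13 and 24.7 CPM, and fell at P14 to 4.65 CPM (-2.41 ± 0.31, adjusted p = 1.1e-06). Tyrp1, a pigment enzyme, rose at P1 to 4.94 CPM (3.82 ± 0.46, adjusted p = 2.9e-07) and was at 0.364 CPM at P60. Dct, a further pigment enzyme, rose at P5 to 2.32 CPM (1.99 ± 0.46, adjusted p = 0.00258) and fell at P14 and P24. Tyr, which encodes the enzyme that defines pigment synthesis, had at most 1 count in any library, and Mlana was at 0 counts in all libraries of E17, P1 and P5. At P60 Mitf held its level while the 11 markers together were back within or near their E17 range, and the part of pigment cells in the Mitf values was not tested.

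The relatives of Mitf were not called between E17 and P1, where their log2 fold changes were 0.75 ± 0.30 for Tfeb, 0.94 ± 0.55 for Tfec and 0.26 ± 0.13 for Tfe3 (adjusted p = 0.0605, 0.213 and 0.155). The difference from Mitf was not tested. Tfeb, a regulator of lysosome genes, rose between E13 and E17 (1.13 ± 0.32, adjusted p = 0.00321) and in P60 against E17 (1.84 ± 0.31, adjusted p = 8.0e-06), in small increments from 6.38 to 22.9 CPM. Tfec fell between E13 and E17 (-3.39 ± 0.52, adjusted p = 3.3e-06). Tfe3 was not called in any comparison, with means between 39.1 and 56.7 CPM. Among the genes nearest to Mitf in profile were Arhgap19 (r = 0.992), which went from 94.0 CPM at E17 to 1346 at P1, and Dock10 (r = 0.986). Dock10 encodes an activator of Cdc42.

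The nearest profiles to Fabp7, Tfap2a and Tfap2b were of mixed closeness. Slc16a7, Matn2 and Fam198a had r = 0.871, 0.865 and 0.854 with Fabp7, and Matn2, a matrix protein of nerve, likewise dipped at P5 (538 CPM) between P1 (913 CPM) and P14 (953 CPM). Celsr1, Src and Ncam1 had r = 0.921, 0.907 and 0.906 with Tfap2b. Nova1, Fibin and Lrrk1 had r = 0.746, 0.746 and 0.742 with Tfap2a, whose counts over these libraries were near the detection limit.

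The 9 genes were then read against 20 other transcription factors of the crest. Of 19 that were tested, 6 rose and 7 fell between E13 and E17 (35.5% of all genes were called either way), with a median log2 fold change of -0.51 against -0.08 over all genes. In P60 against E17, 1 rose and 8 fell (39.7% of all genes), with a median of -1.04 against 0 over all genes once 3 genes with at most 3 counts per library at both stages were set aside. Pax3, which acts at the neural plate border and in pigment cell precursors, had 6.97 CPM at E13, 0.509 CPM at E17 and 0 counts in all P60 libraries. Dlx1, a homeobox gene, fell at P1 (-1.55 ± 0.24, adjusted p = 1.3e-05) and P5 (-1.86 ± 0.26, adjusted p = 6.3e-06). Sox5, which modulates SOX factors of the crest, rose at E17 (1.36 ± 0.19, adjusted p = 5.4e-07) and fell at P14 (-1.57 ± 0.19, adjusted p = 4.9e-07). Sox10, the factor that crest cells and all SCs share, named here after its values were seen, rose at E17 (1.47 ± 0.28, adjusted p = 6.7e-05) and was then not called at any step, at 449 CPM at P60.

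Of 12 surface and cytoskeletal genes of precursors, 8 rose and 2 fell between E13 and E17, and 1 rose and 8 fell in P60 against E17. The medians of the 12 were log2 fold changes of 1.25 and -2.30, against -0.08 and 0 over all genes, of which 35.5% and 39.7% were called either way. Ngfr, the p75 neurotrophin receptor of precursors and immature SCs, went from 131 CPM at E13 to 544 at E17 and 36.2 at P60, with a log2 fold change of -3.91 ± 0.16 (SE, adjusted p = 2.1e-17) for P60 against E17. Gfra3, the receptor for artemin, fell at each step to P5, as the mean of Fabp7 did, with a rise at P14 (2.21 ± 0.27, adjusted p = 5.1e-07) from 2.57 to 11.8 CPM, followed by falls at P24 (-1.48 ± 0.27, adjusted p = 7.0e-04) and P60 (-1.27 ± 0.31, adjusted p = 0.00493). Cdh6 has been described with the cadherins.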

How the data were processed

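The authors prepared stranded poly-A libraries, sequenced single-end reads, aligned them with STAR 2.6.1c and summed them by gene in featureCounts. The deposited values are raw counts per gene. The genome build is GRCm38.p5 in the submitters' processing notes and a human build name in the study's methods. The strand setting and the treatment of multiply aligned reads are not given in the sources used here. GENCODE M21 supplied symbols, coordinates and exon lengths for 41519 of 41605 identifiers.

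Genes were filtered by filterByExpr, scaled by TMM and fitted over all 28 libraries with stage as the only term (edgeR 4.0.16, quasi-likelihood test, R 4.3.3), with p-values adjusted by Benjamini-Hochberg over 17700 genes. The functions were tested on simulated data. SE was derived from the F statistic. The 9 genes and the gene lists were chosen with earlier results of these data known. Named genes were the 9, called members of gene families, the 3 genes of each other list with the largest change called in P60 against E17, and for each of the 9 the 3 protein-coding genes with the highest Pearson r of log2 CPM (prior count 2) over the 24 libraries from E17, of which 1 is not reported here. Libraries of a stage came from separate animals or pools, and none of the 42 pairs of libraries within a stage held identical counts. Alternatives were other scalings and filters, DESeq2 1.42.0, limma 3.58.1 (voom), GC correction, a replicate block, fewer libraries and no fold minimum.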

Additional observations from a re-analysis of the deposited data

Results flagged for a closer look

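In 63 groups of 4 libraries (9 genes at 7 stages), 5 held a library whose gap to the nearest of the others exceeded Dixon's 95% critical value for 4 values, where chance alone gives about 1 in 20. For Cdh19 at P14, replicate 1 was the highest at 273.7 CPM in an otherwise very tight group of 261 to 263 CPM. For Foxd3 at P1, replicate 1 was the lowest at 21.3 CPM, and this library had a GC slope of -0.57. For Foxd3 at P5, replicate 4 was the lowest at 27.6 CPM against 31.7 to 32.5 CPM. For Tfap2a at P1, replicate 2 was the highest at 0.791 CPM (19 counts against 4 to 6). For Tfap2b at P60, replicate 4 was the highest at 0.0628 CPM, which is 1 count where the other libraries had 0.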

How the results depend on the processing

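The 23 called changes of the 9 genes in the 7 comparisons gave 474 values under the alternatives. Of these, 470 kept direction and call, 4 lost the call and none reversed. The alternative with no fold minimum reuses the main fit, so no called change could lose its call there. A further call, Tfap2b in P5 against P1, was lost with no value, since the gene did not pass the filter when only those 2 stages were fitted. The other losses were Ets1 in E17 against E13 with library size scaling only (0.79), without E13 replicates 1 and 4 together (0.90) and without E13 replicate 4 (0.87), and Tfap2b in P1 against E17 without E17 replicate 3 (-1.10). The number of genes called in P5 against P1 was 3 with library size only (Ednrb -1.03 and Fabp7 -1.15 added), 2 with no fold minimum, and 0 when only the libraries of the compared stages were fitted, where Tfap2b was not tested. In P24 against P14 it was 2 with voom (Fabp7 -1.02 added), and in P14 against P5 it was 5 with no fold minimum. Leaving out 1 library at a time gave 7 to 8 calls in E17 against E13, 3 to 5 in P1 against E17, 1 in P5 against P1, 2 to 3 in P14 against P5, 1 to 2 in P24 against P14, 2 in P60 against P24, 5 to 6 in P60 against E17 and 9 along the timeline. Ednrb in P1 against E17 reached 2-fold with library size only (-1.07) and without P1 replicate 1 (-1.001). Moxd1 in P60 against E17 was called with library size only (-1.09) and without P60 replicate 1 (-1.16).

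Every reversal was of a change that was not called. Foxd3 in P5 against P1 was at -0.0018 with DESeq2 size factors and with the DESeq2 test, -0.19 with library size only, -0.021 with no filter, -0.017 with a stricter filter, -0.088 with voom, -0.015 in a fit without E13, and from -0.12 to 0.073 with 1 library left out. Mitf was at 0.0054 (P24 against P14) and 0.075 (P60 against P24) with library size only, at 0.13 with voom in E17 against E13, and with 1 library left out from -0.32 to 0.0093 (E17 against E13), from -0.16 to 0.0078 (P24 against P14) and from -0.11 to 0.060 (P60 against P24). Ets1 in P5 against P1 was at 0.035 with voom and from -0.0875 to 0.075 with 1 library left out. So too, Tfap2b in P14 against P5 ran from -0.14 to 0.86, Tfap2a in P24 against P14 from -0.25 to 1.59 and Moxd1 in P60 against P24 from -0.60 to 0.0086. The cause was not tested for any of these.

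Library size scaling without TMM shifted the median change over all genes (log2) from -0.08 to -0.33 in E17 against E13, from 0 to -0.31 in P60 against E17, and to -0.11, -0.19 and -0.17 in P1 against E17, P5 against P1 and P14 against P5. The share of calls that were higher went from 40.1% to 28.7%, 56.0% to 42.0%, 53.8% to 43.0%, 69.4% to 44.7% and 59.1% to 46.2% in the same order, and from 42.7% to 52.5% in P60 against P24. The GC correction, the replicate block and both together changed no call of the 9 genes. They could hardly do so. The correction works on deviations from the mean of a stage, and every replicate number occurs once in each stage. Deviations of same-numbered libraries of different stages had r from -0.20 to 0.57 (median 0.084, against -0.040 for different numbers), with 33 of 84 pairs over 0.1. Not every pair was over 0.1 and no source ties the numbers together, so the numbers were not taken to pair the libraries. Still, 17 of 28 libraries were closest to their own number, a hint from the data and not from the design. The sample titles do not give the sex of a library. Sex was not in the fit, and its part in these values was not tested. Of the 27 nearest genes, 5 were shared with the lists from all 28 libraries and 5 with those by Spearman's rho. Depth limits Tfap2a and Tfap2b from E17 on.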

Other observations

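Markers of other cells in the nerve that none of the 9 genes was set against moved in their own ways. Macrophage markers (6 genes) summed to 309.6 to 415 CPM at E13 and 89.0 to 97.9 CPM at E17, with all 6 called lower, and 2 were called higher between P1 and P5. Pericyte and smooth muscle markers (7 genes) went from 229.5 to 268 CPM at E17 to 646 to 715 CPM at P60, with 4 called higher. Mast cell markers (7 genes) stood at 6.75 to 18.4 CPM at P24 and 28.2 to 45.6 CPM at P60. Lymphocyte markers (7 genes) and keratinocyte markers (5 genes) did not exceed 11.9 and 8.02 CPM in any library. Skeletal muscle markers (6 genes) reached 31.0, 668, 72.4 and 66.0 CPM in the E13 libraries and stood at 0.311 to 5.55 CPM after birth.

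Among the 9 genes themselves, the pair with the highest Pearson r over the 24 libraries from E17 to P60 was Ednrb and Ets1 (r = 0.937, Spearman's rho = 0.924), which also had the highest rho. The lowest r was that of Cdh19 and Ednrb (r = -0.774, rho = -0.732) and the lowest rho that of Moxd1 and Mitf (r = -0.653, rho = -0.787). These values describe libraries that share stage and depth.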
